A study of Mus musculus with 6 samples.

Results

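Colonies carrying shRNAs against Glis3 were compared with colonies carrying a control shRNA. These are 4 of the 6 libraries in the series, chosen by their titles: Glis3 knockdown libraries 1 and 3 and control libraries 1 and 3. The other 2 libraries, from a CD133 knockdown, entered the estimate of the spread and served where the Glis3 knockdown was set beside another knockdown. Levels are RPKM values, reads normalised for transcript length and library total, and the test took in the 10829 of 11164 genes whose mean over the 6 libraries reached 1 RPKM. All groups came from adult C57Bl/6 mice 2 to 4 months old, from which pancreatic cells high in CD133 and low in CD71 (the transferrin receptor) were sorted. The sorted cells were exposed overnight to lentivirus with polybrene and then grown as colonies in methylcellulose and Matrigel, in medium with fetal calf serum, conditioned medium, RSPO1, nicotinamide, exendin-4 and activin B, under puromycin. Colonies were collected after 3 weeks. The Glis3 and CD133 vectors were pools of 5 shRNA clones each, whereas the control was 1 shRNA without a mammalian target. A separate origin of the libraries of a group in animals or cultures is not given in the sources used here, so p-values measure the spread between libraries, which may be technical.

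Glis3 is a zinc-finger transcription factor related to the Gli proteins of the Hedgehog pathway. In the pancreas it is known for its roles in the bipotent duct and endocrine progenitors of the embryo, in insulin transcription in beta cells and in the ductal epithelium, where its loss in mice gives enlarged ducts. Its preferred DNA site is rich in G, like that of the Gli proteins. The series asks how Glis3, CD133 (the membrane glycoprotein encoded by Prom1) and Wnt signalling are connected in the renewal of these cells.

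The RPKM sums of the 6 libraries lay between 267688 and 279122, and the depth estimated from the steps between low values lay between 25.8 and 29.2 megareads. Pearson's r of log2 values across genes was 0.995 between the control libraries and 0.992 between the Glis3 knockdown libraries, and no 2 libraries held identical values. Of 14 duct markers 13 were in the table, Cftr is not analysed here, and none of the 13 passed the test in the Glis3 knockdown. The summed level of these 13 genes was 10297 to 10929 RPKM in the controls and 8270 to 9667 in the knockdown, most of it from Spp1. Of 20 acinar markers 2 were in the table, Reg1 and Cela1, and Cela1 was too low to be tested. Their sums, nearly all from Reg1, were 197 to 305 RPKM in the controls and 49.3 to 109 in the knockdown. Of 16 endocrine markers 8 were in the table, with sums of 9.07 to 17.7 RPKM and 12.6 to 25.2. Of the mesenchymal, endothelial and blood or macrophage markers 1 of 14, 1 of 10 and 1 of 14 were in the table (Fn1, Esam and Cd68). The other two lists, Schwann and neural (3 of 10) and gastric and intestinal (7 of 16), had sums of 30.7 to 31.4 and 39.7 to 46.5 RPKM in the controls and 29.6 to 32.0 and 54.1 to 54.8 in the knockdown. The part of other cell types in the results was not tested. Values joined by "against" are control libraries 1 and 3 and then Glis3 knockdown libraries 1 and 3. Of the genes named, Adamts9, Ahr, Atg9b, B4galnt2, Bmp6, Ch25h, Col4a1, Fn1, Fstl3, Gas1, Ghrl, Hmgn3, Hsp90b1, Icam1, Idi1, Igfbp7, Il1a, Iqcg, Mt2, Pdha1, Prom1, Sox4, Stat3, Tgfb2 and Wnt7b overlap exons of another annotated gene on the opposite strand, and Akr1c19, Atp2b4, Ctla2a, Hsp90b1, Sprr2a1, Tkt and Trf on the same strand. The use of strand in counting is not known here, so reads of a neighbour may be included. Mmp13, Wnt16, Cyp4b1 and Ctsw reached the minimum mean of 1 RPKM only through the control libraries, and Cytip, Scd1 and Gcg only through the Glis3 knockdown libraries, so they could enter the test only with a high level there. These genes apart from Gcg also passed with no minimum. That does not undo the selection, since each gene analysed reached 1 RPKM in some library.

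Glis3 itself was at 26.1 and 24.2 RPKM in control libraries 1 and 3 and at 13.3 and 11.96 in knockdown libraries 1 and 3. The CD133 knockdown libraries were at 24.8 and 24.2. Both Glis3 shRNA libraries were below all 4 others, and the knockdown left 50.3% of the control level (log2 fold change -0.94, standard error (SE) 0.068, limma adjusted p = 0.00281). Glis3 is annotated on chromosome 19, minus strand, from 28258851 to 28680077 (GRCm38, GENCODE M21). Leaving out any 1 of the 4 libraries kept it past the threshold, with log2 fold changes from -1.01 to -0.87. Of the 16 tested genes on a list of Gli and Hedgehog components 2 fell (12.5%, against 4.53% of all genes). That share includes Glis3, whose fall was set by the design as the target of the shRNAs, and 1 other gene. The other was Gas1, a cell-surface co-receptor for Hedgehog ligands (3.79 and 4.40 RPKM in the controls against 2.51 and 1.60, limma adjusted p = 0.0225). The related factor Glis2 was at 25.5 and 22.1 RPKM in the controls and 20.2 and 16.9 in the knockdown and did not pass the test (adjusted p = 0.0686). Its groups do not overlap, which holds for 59.6% of all genes tested. The Hedgehog receptor Ptch1 and the transducer Smo had log2 fold changes of -0.21 and 0.05 (adjusted p = 0.155 and 0.595). Prom1, which encodes CD133, was at 191 and 203 RPKM in the controls and 221 and 202 in the Glis3 knockdown, ranges that overlap (adjusted p = 0.42).

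Across all genes, 1400 of 10829 (12.9%) passed the test at a limma adjusted p under 0.05, 909 of them higher (8.39%) and 491 lower (4.53%). The libraries of the 2 groups did not overlap for any of these 1400 genes, and they did not overlap for 59.6% of all genes tested. The median change was 0.43 log2 units among genes that rose and -0.47 among genes that fell, against 0.04 over all genes tested. Among genes past the threshold, 26 of those that rose (2.86%) and 58 of those that fell (11.8%) changed by over 1 log2 unit. The share of calls that were higher, 64.9%, was 44.7% after each library was centred on its median and 50.8% after quantile normalization. The plot of fold change against level shows every gene tested. In bulk colonies, fewer cells of a type and less RNA per cell cannot be told apart.

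**Figure D1:**
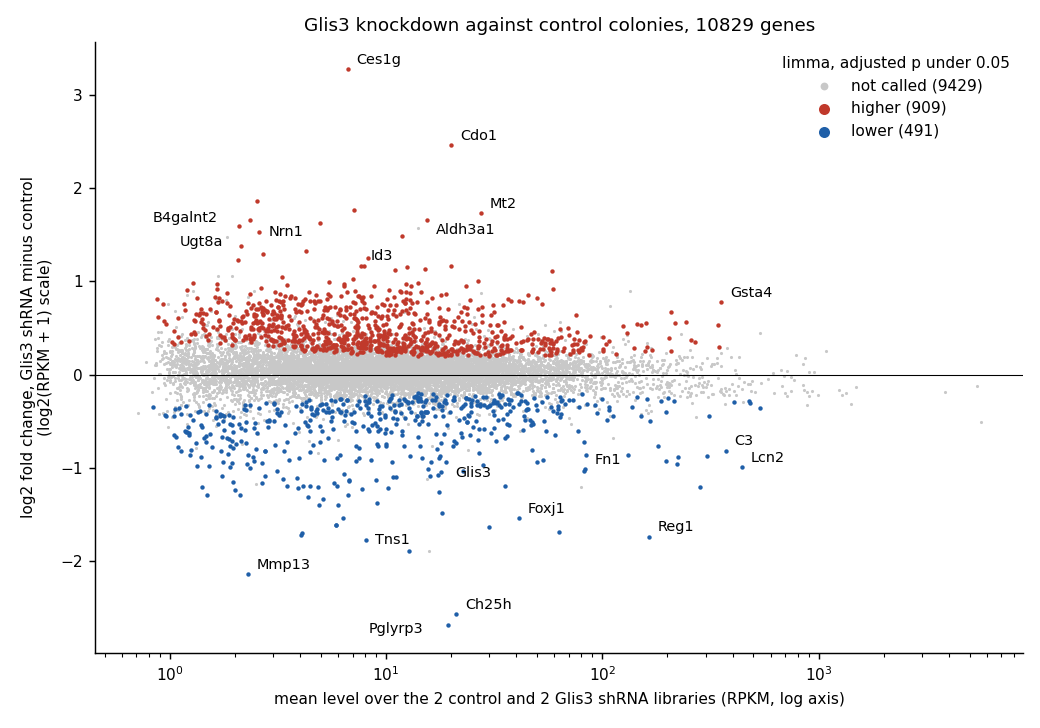
Each point is 1 of the 10829 genes tested, by its mean level over the 2 control and 2 Glis3 shRNA libraries (RPKM, log axis) and its log2 fold change on the log2(RPKM + 1) scale. Red and blue mark the 909 genes higher and 491 lower at a limma adjusted p under 0.05, and the points farthest from 0 are Ces1g and Cdo1 above and Pglyrp3 and Ch25h below.

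The number of calls moved with the libraries used. Without control library 1, 21 of the 1400 genes stayed past the threshold, and without control library 3, 87 did. Leaving out knockdown library 1 or 3 kept 987 or 481. All 1400 kept their direction in each of these fits, which follows from groups that do not overlap. These fits have 2 residual degrees of freedom in place of 3. The 21 genes kept without control library 1 passed whichever of the 4 libraries was left out, with adjusted p up to 0.0489, and comprise 12 that rose, 8 that fell and Glis3.

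Among the 12 that rose, Cdo1, the cysteine dioxygenase that commits cysteine to sulfinate and taurine, had the largest change. It was at 5.33 and 5.55 RPKM in the controls, 32.9 and 35.98 in the Glis3 knockdown and 7.86 and 9.57 in the CD133 knockdown (log2 fold change against control 2.46, SE 0.093, adjusted p = 0.000554). Both Glis3 shRNA libraries were above all 4 others. B4galnt2, which caps glycans with the Sd(a) sugar, went from 0.59 and 0.48 RPKM to 3.76 and 3.53 (1.60, SE 0.081). Ugt8a, the galactosyltransferase that makes galactosylceramide, went from 0.79 and 0.69 to 3.44 and 3.62 RPKM (1.38, SE 0.09). Nrn1 (neuritin, a membrane-anchored neurotrophic protein) went from 0.87 and 0.83 to 4.10 and 4.59 RPKM and Cpm (the membrane enzyme carboxypeptidase M) from 5.72 and 5.79 to 18.2 and 17.6. For each of these 4 genes both knockdown libraries exceeded both controls by over 2-fold. Anxa13 (a membrane-binding annexin of intestine and kidney) was at 5.47 and 3.56 against 12.1 and 11.8 RPKM, Id3 (an inhibitor of bHLH transcription factors) at 4.03 and 4.67 against 10.9 and 11.1, and Akr1c19 (an aldo-keto reductase) at 7.0 and 7.76 against 17.8 and 17.5. The remaining 4 were Csrp2 (a LIM-domain protein), Flrt3 (a membrane protein of cell adhesion and FGF signalling), Samd12 and Rabl6 (a Rab-like GTPase), with log2 fold changes of 0.98, 0.92, 0.75 and 0.70.

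Among the 8 that fell besides Glis3, Mmp13, the collagenase MMP-13, had the largest change. It was at 4.50 and 4.23 RPKM in the controls, 0.30 and 0.14 in the Glis3 knockdown and 1.44 and 1.52 in the CD133 knockdown (log2 fold change -2.14, SE 0.094, adjusted p = 0.000762). Fn1 (fibronectin) was at 112 and 112 RPKM in the controls and 53.5 and 56.3 in the knockdown (-1.02, SE 0.054). Slco2a1, the prostaglandin transporter, was at 23.9 and 24.3 against 11.4 and 10.3 RPKM. Inhba, the activin A subunit, was at 24.2 and 19.97 against 9.56 and 10.1 RPKM, and Ccl2, a monocyte chemokine, at 13.5 and 17.8 against 7.18 and 6.20. Both knockdown libraries were below both controls for each of these 4 genes, as for every gene called lower. Ccl2 stood above the controls in the CD133 knockdown (24.2 and 25.8). Ffar4, a receptor for long-chain fatty acids, was at 10.2 and 9.03 against 3.90 and 3.73 RPKM. Atp2b4, a plasma membrane calcium pump, was at 4.52 and 4.56 against 1.64 and 1.75 RPKM, and at 4.49 and 4.75 in the CD133 knockdown. Adgrl2 (latrophilin 2, an adhesion receptor) had a log2 fold change of -0.84. The plot of these 21 genes by library shows their levels.

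**Figure D2:**
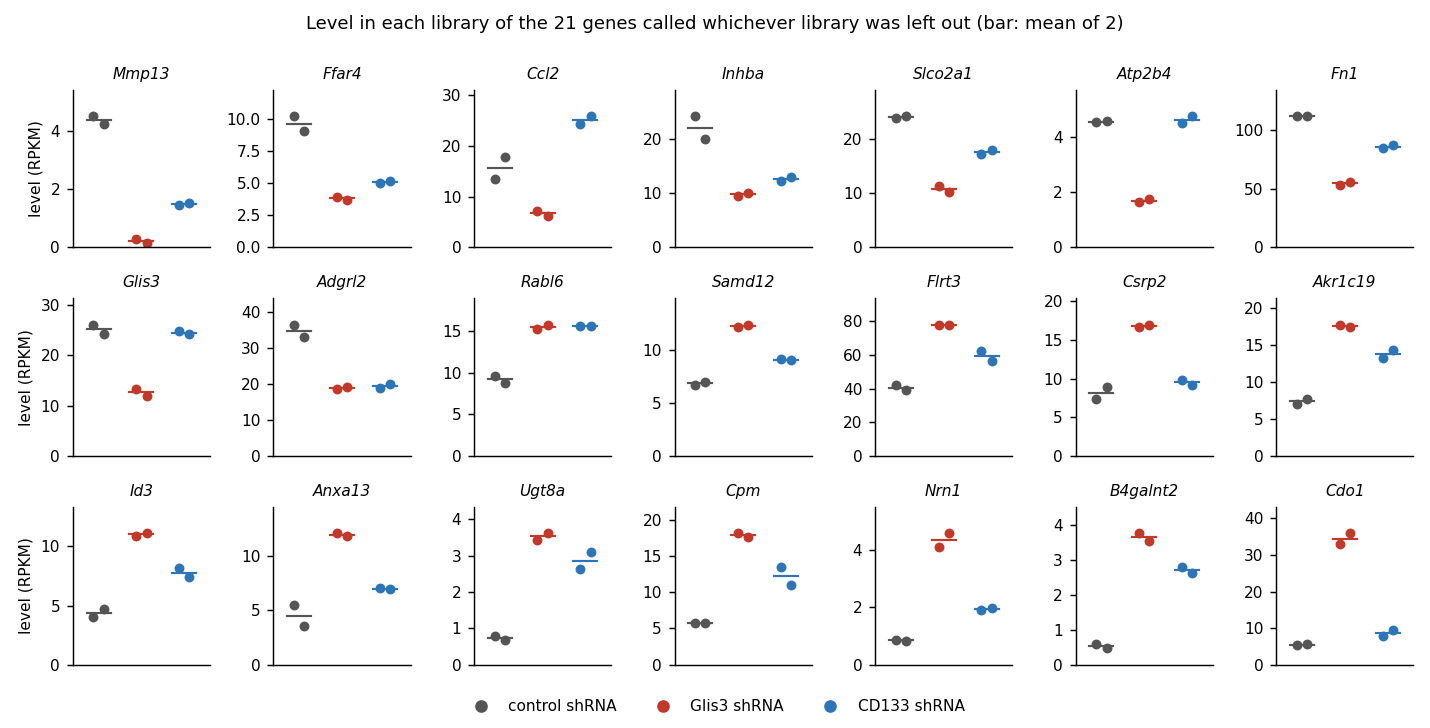
Level (RPKM, axes from 0) of the 21 genes that passed the test whichever of the 4 libraries was left out, ordered by log2 fold change. Points are single libraries and bars the mean of 2. Mmp13 lies at 0.14 to 0.30 RPKM in the Glis3 shRNA libraries against 4.23 to 4.50 in the controls, and Cdo1 at 32.9 to 36.0 against 5.33 to 5.55.

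The promoters of 4 genes are shown because they carry letters that were counted over all promoters. They run from 250 bases before to 50 after the first RefSeq start (GRCm38.p6), 5′ to 3′ on the gene's strand. The TGANTCA element bound by AP-1 is capitalised for Mmp13 (chr9:7272264-7272563, plus strand). A G-rich site of the Gli and Glis kind, TGGGGGGT, is capitalised for Ugt8a (chr3:125938603-125938902, minus strand) and, on the opposite strand, for the chemokine gene Cxcl1 (chr5:90890995-90891294, plus strand). The TTTGAA letters of the cell cycle homology region and CCAAT boxes are capitalised for the mitotic cyclin gene Ccnb2 (chr9:70421505-70421804, minus strand).
Mmp13: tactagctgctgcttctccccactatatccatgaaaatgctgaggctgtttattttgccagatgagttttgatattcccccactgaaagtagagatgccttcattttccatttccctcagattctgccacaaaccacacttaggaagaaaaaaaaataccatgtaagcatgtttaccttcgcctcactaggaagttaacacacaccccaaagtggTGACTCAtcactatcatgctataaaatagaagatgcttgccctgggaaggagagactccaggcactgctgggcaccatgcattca
Ugt8a: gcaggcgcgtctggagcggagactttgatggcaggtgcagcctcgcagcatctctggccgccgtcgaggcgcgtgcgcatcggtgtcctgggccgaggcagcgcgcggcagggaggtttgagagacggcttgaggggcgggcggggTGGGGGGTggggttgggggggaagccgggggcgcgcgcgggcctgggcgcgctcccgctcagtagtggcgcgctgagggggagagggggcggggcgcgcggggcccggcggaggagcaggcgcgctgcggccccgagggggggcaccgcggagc
Cxcl1: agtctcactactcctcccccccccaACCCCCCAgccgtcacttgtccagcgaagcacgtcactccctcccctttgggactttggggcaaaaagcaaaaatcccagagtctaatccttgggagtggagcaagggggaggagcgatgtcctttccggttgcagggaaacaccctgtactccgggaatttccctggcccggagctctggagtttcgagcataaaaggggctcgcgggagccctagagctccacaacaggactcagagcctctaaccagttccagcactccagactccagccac
Ccnb2: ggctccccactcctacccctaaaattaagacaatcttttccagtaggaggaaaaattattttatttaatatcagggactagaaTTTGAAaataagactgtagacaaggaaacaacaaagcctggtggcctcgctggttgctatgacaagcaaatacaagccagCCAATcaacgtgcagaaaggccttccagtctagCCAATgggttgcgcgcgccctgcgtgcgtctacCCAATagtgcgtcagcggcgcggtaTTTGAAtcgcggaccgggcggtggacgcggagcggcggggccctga

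A promoter was found for 8545 of the 10829 genes tested, 720 of the 909 that rose and 361 of the 491 that fell. TGGGGGGT, read on both strands, was in 1.26% of all these promoters, 1.25% of those that rose and 1.39% of those that fell. TGGGTGGT, a variant of that site, was in 1.29%, 2.08% and 2.22%. TGANTCA was in 4.62% of all, 5.28% of those that rose and 9.42% of those that fell. TTTGAA was in 11.5%, 20.1% and 12.7%, and CCAAT in 39.0%, 47.2% and 36.3%. These shares describe letters in a window, and the last 3 of these motifs were chosen after the results were known. Of the genes shown, Cxcl1 was at 23.3 and 23.4 RPKM in the controls and 14.1 and 10.6 in the knockdown (log2 fold change -0.88, adjusted p = 0.0206).

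Plasma protein and complement genes past the threshold were lower, apart from 1. Of 13 tested genes for plasma and acute phase proteins 7 fell (53.8%) and 1 rose, with a median of -0.96 log2 units, and of 16 complement and coagulation genes 5 fell (31.3%) and none rose, with a median of -0.30. Among all genes 4.53% fell and the median was 0.04. Trf, the iron carrier transferrin, was at 7.06 and 6.46 RPKM in the controls and 1.36 and 1.33 in the knockdown. Hp (haptoglobin, which binds free haemoglobin) was at 7.59 and 5.95 against 1.54 and 1.22 RPKM, Lbp (which presents bacterial lipopolysaccharide) at 95.2 and 96.8 against 38.1 and 22.02, and Rbp4 (the retinol carrier) at 28.04 and 26.4 against 10.4 and 7.83. Gpx3, the secreted glutathione peroxidase, was at 21.9 and 19.5 RPKM in the controls and 3.81 and 6.06 in the knockdown (log2 fold change -1.90, SE 0.23, adjusted p = 0.00801). In all of these the knockdown libraries lay below both controls, as for every gene called lower. C3, the central component of complement, fell from 453 and 493 to 309.9 and 232 RPKM. The 1 plasma gene that rose was Ttr, the thyroxine carrier transthyretin (21.6 and 19.6 against 27.6 and 30.4 RPKM, adjusted p = 0.0244). No plasma gene passed without control library 1 (0), as without control library 3 (0), and without knockdown library 3 4 of them did. For complement genes these counts were 0, 0 and 2.

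Of 26 tested genes of mucosal defence, for secreted proteins, membrane receptors and others, 7 fell (26.9%, against 4.53% of all genes) and 2 rose. Pglyrp3, a peptidoglycan recognition protein that kills bacteria, had the largest fall of all genes tested, from 35.6 and 32.7 RPKM in the controls to 4.48 and 4.41 in the knockdown (log2 fold change -2.69, SE 0.21, adjusted p = 0.00387). Chil1 (a chitinase-like lectin) was at 8.72 and 10.03 against 2.73 and 2.08 RPKM, and Lcn2 (the siderophore-binding lipocalin) at 544 and 623 against 375 and 226. Reg1, a secreted lectin-like protein of the exocrine pancreas, was at 197 and 304 RPKM in the controls, 108 and 48.6 in the Glis3 knockdown and 388 and 382 in the CD133 knockdown (adjusted p = 0.0281). Reg3g, a bactericidal lectin, was at 7.04 and 8.31 against 3.45 and 1.66 RPKM. For Reg1 and Reg3g the 2 knockdown libraries differed from each other about 2-fold, as much as the nearer one did from the lower control, and reads of Reg paralogs may be shared. The genes that rose were Dmbt1, a mucosal scavenger receptor (157 and 164 to 275 and 239 RPKM), and Sprr2a1, a cornified-envelope protein (1.52 and 1.97 to 3.35 and 3.09). The list had 0 genes lower without control library 1 and 1 without control library 3. Pglyrp3 had an adjusted p of 0.0627 without control library 1 and 0.0406 without control library 3.

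Among 41 tested chemokines, cytokines and NF-kB components 11 fell (26.8%, against 4.53% of all genes) and 3 rose. The neutrophil chemokines Cxcl1, Cxcl2 and Cxcl5 fell, with Cxcl5 at 356 and 430.1 RPKM in the controls and 260.3 and 175 in the knockdown. Cxcl17, a chemokine of mucosal epithelia, was at 6.83 and 8.24 against 2.92 and 1.66 RPKM, Icam1 (the leukocyte adhesion receptor) at 16.1 and 14.1 against 6.91 and 6.08, and Osmr (the oncostatin M receptor) at 9.63 and 8.40 against 4.36 and 3.25. The transcription factor Stat3 fell by 0.48 log2 units (adjusted p = 0.0283). Tnf, Ccl20 and Il1a rose, with log2 fold changes of 0.61, 0.70 and 0.87, so members of 1 list moved in opposite directions. Ccl20, which attracts dendritic and T cells, was at 18.5 and 21.6 RPKM in the controls and 32.7 and 33.6 in the knockdown. Ccl2 alone in the list passed without control library 1, as lower. Without control library 3 the calls were 2 higher (Ccl20 and Tnf) and 1 lower.

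Genes of activin, TGF-beta and BMP signalling were called in both directions. Of 41 tested 10 fell (24.4%) and 5 rose (12.2%). Both activin subunits fell: Inhba as given above and Inhbb from 15.8 and 13.5 RPKM to 6.41 and 5.05, in a medium to which activin B was added. Fstl3, which binds and blocks activins, fell by 0.50 log2 units, and the receptor Tgfbr1 fell by 0.56. Tgfb1 fell by 0.54 log2 units, whereas Tgfb2 rose from 5.47 and 5.55 to 8.59 and 10.7 RPKM (adjusted p = 0.0105). Bmp6 rose from 6.56 and 7.59 to 12.9 and 12.1 RPKM, Gdf15 (a distant member secreted under stress) from 11.3 and 8.55 to 18.6 and 19.4 and Id3, a target of BMP signalling, as given above. Among 40 genes of EGF-family and FGF signalling and IGF-binding proteins 5 fell and 5 rose (12.5% each). Among all genes 4.53% fell and 8.39% rose. Igfbp7, a secreted IGF-binding protein, was at 404 and 385 RPKM in the controls and 193 and 150.1 in the knockdown (log2 fold change -1.21, adjusted p = 0.0099). Areg (amphiregulin), Fgf9 and Igfbp3 rose by 0.67, 0.63 and 0.64 log2 units. After median centring the activin and TGF-beta list had 16 genes lower. Leaving out control library 1, it had 1 gene lower (Inhba) and 1 higher (Id3), no gene of the EGF and FGF list passed, and without control library 3 the counts were 1 and 2.

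Of 57 tested genes for matrix proteins and their receptors 15 fell (26.3%) and 3 rose. Tns1, the tensin that ties integrins to actin, was at 14.03 and 11.9 RPKM in the controls, 3.49 and 2.70 in the Glis3 knockdown and 11.7 and 15.6 in the CD133 knockdown (log2 fold change against control -1.77, SE 0.15, adjusted p = 0.00436). Gpc3, a cell-surface glypican, was at 10.7 and 7.95 against 2.74 and 2.01 RPKM in controls and Glis3 knockdown. The elastic-fibre proteins Efemp2 and Fbln2 fell, with log2 fold changes of -1.19 and -1.03, as did the integrin subunits Itgb5, Itga5 and Itga2 (-0.53, -0.36 and -0.29). Efemp1 and the basement membrane collagen Col4a1 rose, from 27.8 and 26.7 to 42.4 and 54.2 RPKM and from 44.5 and 47.4 to 56.04 and 62.9. Of 46 matrix proteases and inhibitors 7 fell (15.2%) and 5 rose (10.9%), against 4.53% and 8.39% of all genes. The inhibitors Timp1 and Timp3 fell, with log2 fold changes of -0.89 and -0.73, as did the secreted proteases Adamts9 and Adamts1 (-1.23 and -0.81). The membrane protease Mmp15 rose from 30.6 and 33.4 to 59.5 and 57.5 RPKM. Fn1 and Mmp13 were called lower without control library 1, and the protease Cpm, on the second list, higher. In the fit that omits control library 3, 2 matrix genes were lower and 0 higher, and of the protease list 1 was lower and 3 were higher.

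The motile cilium genes past the threshold were all lower. Of 28 tested 10 fell (35.7%, against 4.53% of all genes), none rose and 18 did not pass. Of the 28, 25 had a log2 fold change under 0, and the median was -0.30. Foxj1, the transcription factor of motile ciliogenesis, was at 64.8 and 58.1 RPKM in the controls and 23.8 and 17.5 in the Glis3 knockdown (log2 fold change -1.54, SE 0.15, adjusted p = 0.0057). The CD133 knockdown libraries were at 39.5 and 48.5. Cfap126, a ciliary protein of basal body positioning, was at 10.4 and 9.48 RPKM in the controls and 3.90 and 3.03 in the knockdown, and Nme5, of the radial spoke, at 10.7 and 9.11 against 4.74 and 4.66. The radial spoke proteins Rsph1 and Rsph9 fell, with log2 fold changes of -0.82 and -0.58, as did Iqcg, of the dynein regulatory complex (-0.89), and the flagella-associated Cfap43 (-0.73). The regulators Rfx2 and Rfx3, at 2.04 to 4.36 RPKM over the 6 libraries, had log2 fold changes of -0.16 and -0.02 (adjusted p = 0.234 and 0.94). The list was low in level apart from Foxj1, Morn2, Cfap126 and Nme5, and 63 of the 93 listed genes are not analysed here. Of the list 0 genes passed without control library 1, without control library 3, 2, and without knockdown library 3, 6.

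**Figure D3:**
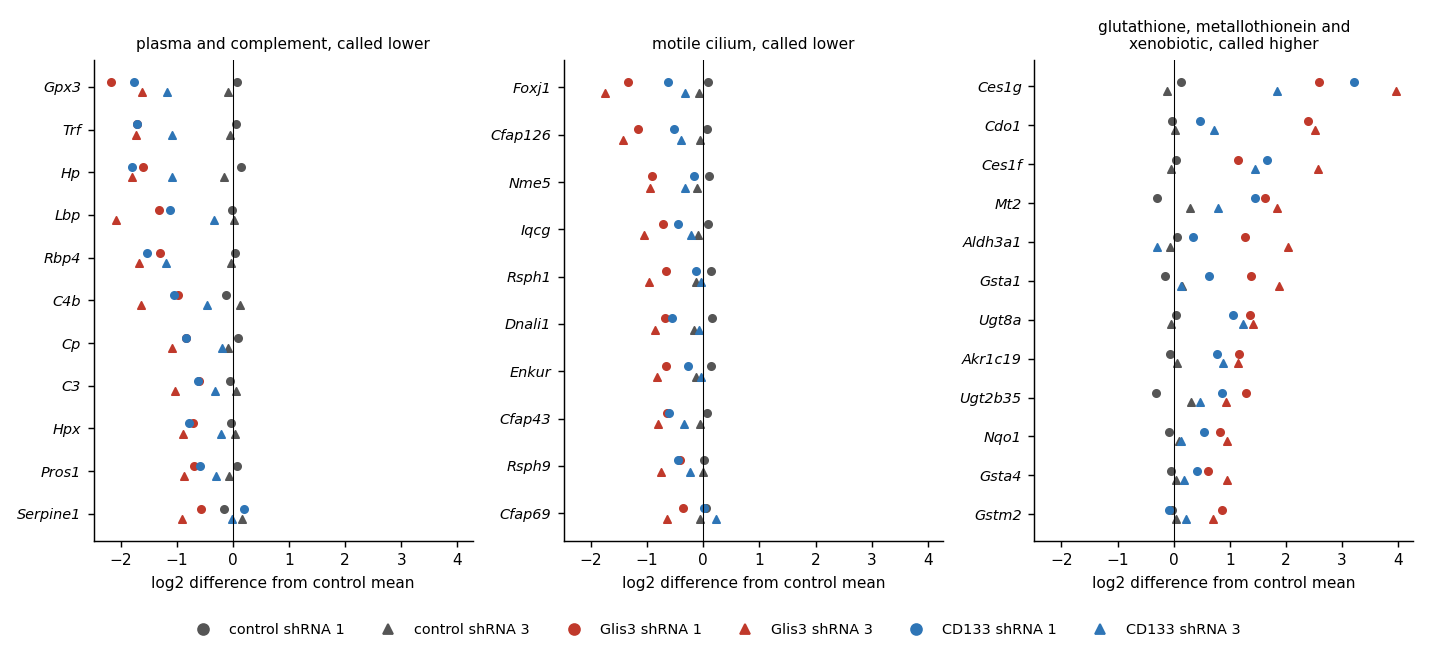
Difference of each library from the control mean on the log2(RPKM + 1) scale, for up to 12 members per panel with the largest changes among those that are reported here and passed the test in the direction named above the panel. Circles are libraries 1 and triangles libraries 3. That choice fixes on which side of the controls the Glis3 shRNA libraries lie, and the panels start with Gpx3, Foxj1 and Ces1g.

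Most genes of glutathione metabolism and detoxification that passed were higher. Of 54 tested genes for glutathione, metallothioneins and antioxidants 20 rose (37.0%, against 8.39% of all genes) and 3 fell, with a median of 0.18. The largest fall was that of Gpx3, given above (log2 fold change -1.90). Besides Cdo1, the metallothionein Mt2 went from 9.60 and 15.03 RPKM in the controls to 39.4 and 45.5 in the knockdown, and Mt1 from 23.8 and 27.4 to 41.9 and 45.2. The glutathione transferases Gsta4 and Gsta1 went from 252 and 268 to 396 and 502 and from 1.60 and 2.19 to 6.46 and 9.63 RPKM, with reads that near-identical Gsta copies may share. All 4 had both knockdown libraries above both controls, as did every gene called higher. Nfe2l2, the regulator of the antioxidant response, rose from 178 and 173 to 224 and 236 RPKM (adjusted p = 0.0128). Its known targets Nqo1, Srxn1, Txnrd1 and Gclc rose by 0.89, 0.57, 0.38 and 0.38 log2 units, whereas Hmox1, another, fell by 0.27. The pentose phosphate enzymes Tkt, Pgd and G6pdx rose by 0.53, 0.38 and 0.34. Without control library 1, 1 of the 20 passed (Cdo1), without control library 3, 2 and without knockdown library 3, 8.

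Of 46 xenobiotic and aldehyde-metabolising genes 17 rose (37.0%, against 8.39% of all genes) and 3 fell, with a median of 0.15. The largest fitted rise of the comparison was that of the liver-type carboxylesterase Ces1g, at 0.41 and 0.19 RPKM in the controls and 6.77 and 19.2 in the knockdown (log2 fold change 3.27, SE 0.54, adjusted p = 0.0154). Its paralog Ces1f went from 0.43 and 0.35 to 2.09 and 7.27, and the 2 knockdown libraries differed over 2-fold for both. Reads of Ces1 copies may be shared. Aldh3a1, an aldehyde dehydrogenase induced by dioxin-like ligands, was at 7.06 and 6.40 RPKM in the controls, 17.7 and 30.8 in the Glis3 knockdown and 8.85 and 5.26 in the CD133 knockdown. The epoxide hydrolase Ephx1, the P450 reductase Por and the retinal dehydrogenase Aldh1a1 rose by 0.55, 0.44 and 0.54 log2 units. Ahr, the aryl hydrocarbon receptor, fell from 114 and 102 to 60.3 and 57.96 RPKM (adjusted p = 0.00736), and Cyp4b1, an oxidase, from 3.81 and 2.99 to 1.15 and 0.48. Akr1c19 and Ugt8a, 2 genes, passed as higher without control library 1, and without control library 3, 3.

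Of 57 tested genes for fatty acids, other lipids and oxysterols 11 rose (19.3%), 6 fell (10.5%) and 40 did not pass. Among all genes 8.39% rose and 4.53% fell. Ch25h, which makes 25-hydroxycholesterol, had the second largest fall of all genes, from 36.9 and 36.8 RPKM in the controls to 5.64 and 5.10 in the knockdown, with 15.04 and 26.7 in the CD133 knockdown (log2 fold change against control -2.57, SE 0.22, adjusted p = 0.00436). Its Glis3 shRNA libraries were below all 4 others. The cholesterol exporter Abcg1 and the lipid droplet protein Plin2 fell, with log2 fold changes of -0.57 and -0.60. The fatty acid enzymes Elovl6 (an elongase), Scd1 and Fads2 (desaturases) rose by 1.04, 0.98 and 0.41, and the nuclear receptor Pparg by 0.41. Among 49 glycosyltransferases and sulfotransferases 7 rose (14.3%), with B4galnt2 and Ugt8a in the lead, and 9 fell (18.4%). Those that fell included Ext1 (heparan sulfate polymerase), St3gal1 (a sialyltransferase) and Ndst1 (heparan sulfate sulfotransferase), at log2 fold changes of -0.67, -0.64 and -0.43. No lipid gene and 2 glycosyltransferases (B4galnt2 and Ugt8a, both higher) passed without control library 1. Ch25h had an adjusted p of 0.0639 without control library 1 and 0.0497 without control library 3.

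Of 41 tested regulators of pancreatic progenitors and ducts 4 rose and 3 fell (17.1%, against 12.9% of all genes), with a median of 0.07. The share includes Glis3, the target of the shRNAs, among those that fell. Pdx1 and Nkx6-1, transcription factors of the early pancreas, rose by 0.28 and 0.49 log2 units, with Nkx6-1 at 4.11 and 3.67 RPKM in the controls and 6.49 and 5.25 in the knockdown. Sox4, a factor of endocrine development, fell, with a log2 fold change of -0.29. The duct factor Sox9 did not pass the test, with a log2 fold change of 0.11 (adjusted p = 0.224), and the endocrine transcripts Gcg, Sst and Ghrl stood at 0.35 to 8.15 RPKM in these 4 libraries with overlapping ranges. Atoh8, a bHLH factor, rose from 1.15 and 1.11 to 3.66 and 4.83 RPKM, Hmgn3, a nucleosome-binding protein, from 1.96 and 1.98 to 5.44 and 7.61, and Car8, a protein related to carbonic anhydrases, from 11.8 and 12.2 to 29.8 and 26.5. Among 67 keratin and junction genes 7 fell and 4 rose (16.4% together). Krt14 and Krt17, keratins of basal cells, fell, with log2 fold changes of -1.09 and -0.94, as did the junctional adhesion protein Nectin4 (-0.94) and the connexin Gjb2 (-0.90). Among 29 genes of ductal ion transport 4 fell and 3 rose (24.1% together). The bicarbonate cotransporter Slc4a4 was among those that fell (log2 fold change -0.39) and the chloride transporter Slc26a9 among those that rose (0.72). Apart from Glis3, none of the genes of these 3 lists passed without control library 1.

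Further lists are given by their counts, beside the 12.9% of all genes that passed (8.39% higher and 4.53% lower). Notch had 1 higher and 2 lower of 26 tested (11.5%), and Hippo and Yap 1 and 4 of 34 (14.7%). Interferon and antigen presentation had 3 and 2 of 36 (13.9%), and the unfolded protein and integrated stress response 7 and 3 of 52 (19.2%). Within the last list Xbp1, the transcription factor spliced by Ern1, fell from 274 and 304 to 183 and 133 RPKM and Ern1 fell by 0.47 log2 units, while the chaperones Hsp90b1 and Calr rose by 0.26 and 0.29. Oxidative phosphorylation had 3 higher and none lower of 76 (3.95%, below the 12.9% of all genes), with a median of 0.11. Pdha1, of the pyruvate dehydrogenase complex, was at 72.8 and 75.2 RPKM in the controls and 49.1 and 44.6 in the knockdown (adjusted p = 0.0052). Of 59 lysosomal genes 8 fell and 3 rose (18.6% together). Ctsc, the dipeptidyl peptidase cathepsin C, went from 49.2 and 49.6 to 24.4 and 18.2 RPKM. Of 38 immediate early genes 6 fell (15.8%) and none rose, led by the kinase Sgk1 (13.5 and 9.15 to 4.20 and 4.13 RPKM), and of 35 p53 targets 8 rose (22.9%) and 2 fell. Of those that rose, Ckap2, Gtse1 and Psrc1 also act at the mitotic spindle. After median centring the calls became 2 higher and 7 lower for the stress response, 0 higher for oxidative phosphorylation and 8 lower for immediate early genes. None of the genes of these lists passed without control library 1.

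Most genes of proliferation and sterol synthesis rose. Of 69 cell cycle genes 64 rose (92.8%) with a median of 0.72 log2 units, of 62 DNA replication genes 49 (79.0%) with 0.49, and of 27 cholesterol genes 22 (81.5%) with 0.49. None of these 3 lists had a gene that fell in this fit, although 1 cholesterol gene passed as lower after median centring. Rrm2, the ribonucleotide reductase subunit, went from 8.88 and 9.27 RPKM to 17.9 and 24.8, Mki67 from 16.6 and 14.2 to 23.6 and 39.8, and Idi1, of the isoprenoid pathway, from 15.4 and 19.3 to 33.3 and 38.2. In Mki67 the 2 knockdown libraries differed by more than the lower one did from the controls. Ccnb2, whose promoter is shown above, was at 11.9 and 14.4 RPKM in the controls and 22.6 and 26.9 in the knockdown (log2 fold change 0.86, adjusted p = 0.00929). Among promoters found, TTTGAA was in 37 of 55 of the cell cycle list (67.3%) and in 12.8% of the DNA replication list, against 11.5% of all, and CCAAT in 70.9% and 59.6%, against 39.0%. The CD133 knockdown did not differ from the Glis3 knockdown by the test for any cell cycle gene and differed for 1 gene of each of the other two lists. None of the 3 lists had a call without control library 1. Without control library 3, the calls were 4, 0 and 5, and without knockdown library 3, 46, 19 and 12.

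Wnt ligands and the other Wnt pathway genes were listed apart. Of 8 tested Wnt ligands 4 fell (50%) and none rose, with a median of -0.30. These 8 are the only ones of 19 listed ligands analysed here. Wnt16, 1 of the 4, reached the minimum mean only through the control libraries, so it could be counted only with a high level there. Of 52 receptors, regulators and targets 3 fell (5.77%) and 2 rose (3.85%), with a median of 0.06. Among all genes 4.53% fell and 8.39% rose. Wnt10a was at 7.28 and 7.11 RPKM in the controls, 2.65 and 2.43 in the Glis3 knockdown and 9.55 and 7.28 in the CD133 knockdown, and Wnt16 at 2.71 and 2.04, 0.38 and 0.53 and 0.85 and 1.53. The Glis3 shRNA libraries were below all 4 others for both. Wnt7a and Wnt7b fell, with log2 fold changes of -0.71 and -0.28. Ctnnb1 (beta-catenin) fell by 0.36 log2 units, and Rnf43, which removes Wnt receptors from the surface, rose by 0.31. None of the ligands passed without control library 1. Cytosolic ribosomal protein genes had a median of -0.17, 77 of 79 under 0, and 6 passed as lower (7.59%), or 15 after median centring and none without either control or either knockdown library. The plot of list members shows each list's calls and median beside the median of all genes.

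**Figure D4:**
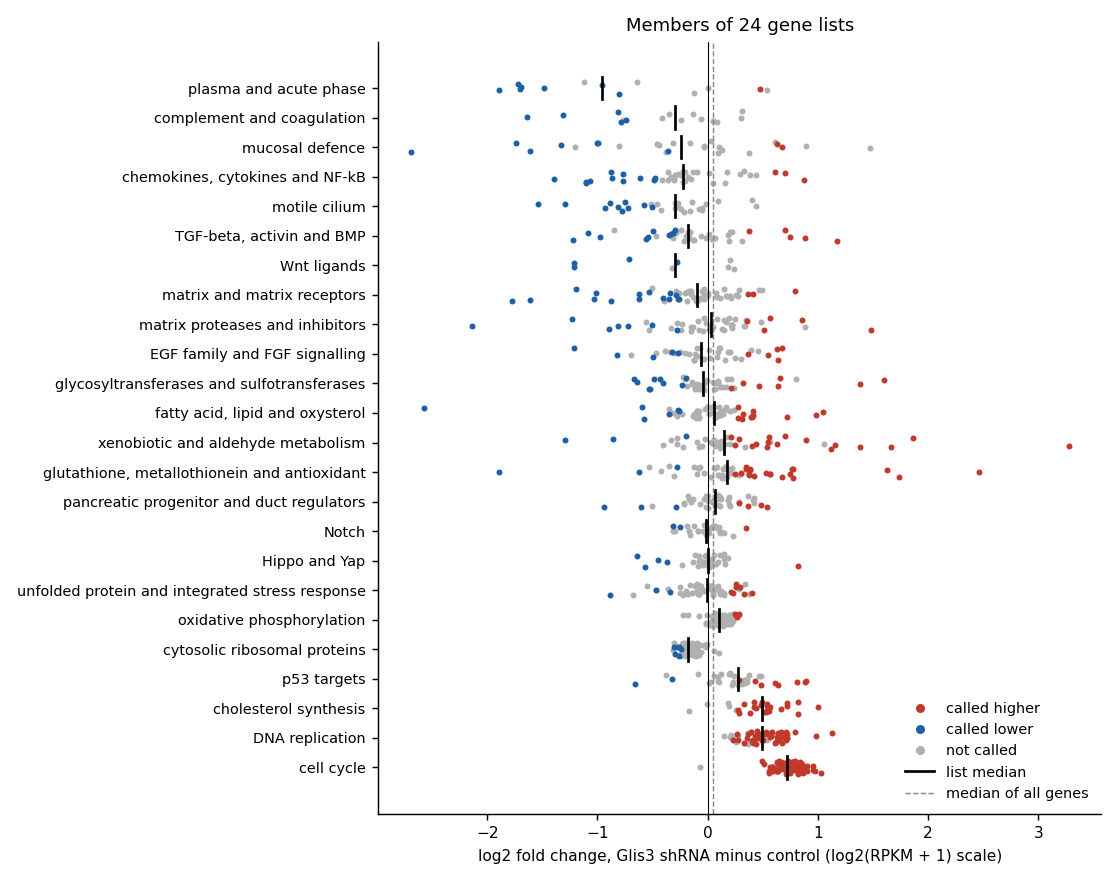
Log2 fold change of every tested member of 24 gene lists, with genes past the threshold in red (higher) and blue (lower), a black bar at the list median and a dashed line at the median of all genes tested (0.04). Plasma, complement, defence, cilium and Wnt ligand members lie mostly to the left, and cell cycle, replication and cholesterol members to the right.

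The Glis3 knockdown was also tested against the CD133 knockdown. Control libraries enter this comparison only through the shared estimate of the spread. It gave 440 genes (4.06%), 174 higher (1.61%) and 266 lower (2.46%) in the Glis3 knockdown. Without Glis3 knockdown library 1 the counts were 273 higher and 470 lower, without library 3 they were 41 and 69, and without a control library 25 to 26 and 31 to 32, for a cause that was not tested. Glis3 itself was lower than in the CD133 knockdown (log2 difference -0.90, adjusted p = 0.00522) and Prom1 was higher by 1.19 (adjusted p = 0.0041). The largest falls against the CD133 knockdown were those of Reg1 (-2.40), Ctla2a, an inhibitor of cysteine proteases (-1.89), Tns1 (-1.83), Reg3g (-1.82) and Reg3b (-1.82). Ctla2a was at 2.23 and 2.74 RPKM in the controls, 3.53 and 2.38 in the Glis3 knockdown and 16.7 and 10.8 in the CD133 knockdown, and it did not pass against control. The largest rises against the CD133 knockdown were those of Mup20 (1.98), Fmo2 (1.92), Cdo1 (1.87), Cytip (1.81) and Aldh3a1 (1.63). Mup20 is a lipocalin whose reads near-identical copies may share, Fmo2 a flavin monooxygenase and Cytip a cytohesin-binding protein. Against control, Mup20 and Fmo2 had log2 fold changes of only 0.54 and 0.57, and Mup20 did not pass. Cytip was at 0.68 and 0.49 RPKM in the controls, 3.16 and 5.03 in the Glis3 knockdown and 0.38 and 0.47 in the CD133 knockdown, so it reached the minimum mean of 1 RPKM through the Glis3 shRNA libraries. Of 57 matrix genes 12 were lower and none higher than in the CD133 knockdown, and of 28 motile cilium genes 5 were lower and none higher. Of 13 plasma genes 2 differed, both higher, among them Ttr by 1.30 log2 units, so none of the 7 plasma genes that fell against control passed the test of the difference from the CD133 knockdown, at these 2 libraries per group.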

How the data were processed

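Colonies of sorted adult mouse pancreatic cells were profiled by poly(A)-selected, stranded RNA sequencing, per the labels' protocols. The authors deposited 1 table of RPKM values with 2 decimals for 11164 genes, and the 6 columns were matched to samples by the names in the labels. TopHat2, HTSeq, bcl2fastq 2.18.0.12 and the build mm10 are named in the submitters' processing notes. Settings, gene annotation, strand in counting and the total behind RPKM: not given in the sources used here. Each gene in the table reached 1 RPKM in some library, and other genes are not analysed here.

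Values were analysed as log2(RPKM + 1), which understates the change of low genes, for 10829 genes (minimum mean 1 RPKM). The model had 3 group means over all 6 libraries in limma 3.58.1 (R 4.3.3), with empirical Bayes moderation, a variance trend, 3 residual and 3.69 prior degrees of freedom. Tests were two-sided, with Benjamini-Hochberg adjustment over all genes tested and a threshold of 0.05. The script was tested on simulated data. Depth was estimated from the RPKM steps of low values, where 56.8% to 62.6% of values came out whole within 0.15 read, so no counts were recovered and no count test was run. Promoters came from the RefSeq table of GRCm38.p6 and gene positions from GENCODE M21.

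The members and gene lists were chosen with earlier results of these data known. Lists are therefore given by counts and medians, without a test. Genes named are Glis3 and Prom1, the 25 largest rises and falls past the threshold, the 10 with the smallest p, the 10 most abundant past the threshold, up to 4 members per list and direction, and the 5 largest differences from the CD133 knockdown in each direction. Some genes that the rule selects are not reported here. Outside this rule, genes were named after their values were seen where they pass whichever library is left out, share a pathway step with a named gene, or mark a cell type. Alternatives were pseudocounts of 0.1 and 5, no filter, a minimum mean of 5 RPKM, median centring, quantile normalization, a fit over 4 libraries, no variance trend, a replicate block and leaving out each library.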

Additional observations from a re-analysis of the deposited data

How the results depend on the processing

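All 1400 genes past the threshold against control kept their direction under each alternative that tested them (971 of them with a minimum mean of 5 RPKM). As their groups do not overlap, only median centring and quantile normalization could have reversed a direction. With that minimum, 588 genes were higher and 325 lower, since fewer genes were tested. Median centring gave 576 higher and 712 lower (44.7% higher) and quantile normalization 641 and 621, and 1067 and 1104 of the 1400 genes kept their call. Leaving out 1 library gave 12 to 793 genes higher and 9 to 541 lower against control, and 25 to 273 higher and 31 to 470 lower against the CD133 knockdown. The lowest counts came without control library 1 for all 4. Control libraries enter the second comparison only through the shared estimate of the spread, and the cause was not tested. Of the genes named that did not pass, 4 changed sign: Smo was at -0.0065 after median centring, Ctla2a ranged from -0.040 to 0.38 and Ghrl from -0.26 to 1.07 over the libraries left out, and Rfx3 from -0.15 to 0.12. At an unadjusted p under 0.05 the fit without control library 1 had 2579 genes.

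With the replicate number as a block, 410 genes were higher and 198 lower against control, and 28 and 51 against the CD133 knockdown. The titles share numbers 1 and 3 between groups. Deviations of same-numbered libraries correlated at -0.372 (control and Glis3 knockdown), -0.428 (control and CD133 knockdown) and 0.0322 (the 2 knockdowns). Whether the numbers mark a shared origin was not tested. Crossing the control numbers in the block, an alternative chosen after seeing the data, gave 962 higher and 535 lower against control, and 245 and 389 against the CD133 knockdown.

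Each group has 2 libraries, so small changes could not be told from the spread between them. Reads that near-identical genes share (Ces1, Gsta, Gstm, Reg, Mup, Ugt2b and Akr1c copies) cannot be assigned here.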

Other observations

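Of the 1400 genes past the threshold in the Glis3 knockdown, 984 are on none of the gene lists. Among the larger rises of these was Obp2b, an odorant-binding lipocalin, at 2.91 and 2.43 RPKM in the controls, 12.99 and 10.1 in the Glis3 knockdown and 5.57 and 9.50 in the CD133 knockdown (log2 fold change against control 1.77, limma adjusted p = 0.0085), with reads that Obp2 copies may share. Sdpr, a caveolar coat protein, was at 5.02 and 3.75, 8.12 and 14.7 and 3.05 and 3.31 RPKM, so its Glis3 shRNA libraries were the highest of the 6. Atg9b, a lipid scramblase of autophagy, was at 9.0 and 4.53, 17.6 and 13.1 and 22.7 and 23.6 RPKM, and its CD133 knockdown libraries were the highest. Among the larger falls were Tmem178, a membrane protein of the endoplasmic reticulum (9.98 and 9.74 RPKM in the controls and 3.16 and 2.36 in the Glis3 knockdown), Pcp4l1, a small IQ-domain protein (8.91 and 9.32 against 3.33 and 2.38), and Bdkrb2, the bradykinin B2 receptor (14.5 and 12.5 against 5.06 and 4.14). The cysteine protease Ctsw was at 2.70 and 2.34 RPKM in the controls and 0.42 and 0.46 in the Glis3 knockdown, and the glutaredoxin Glrx at 22.5 and 27.3 against 12.9 and 7.39. As for all 1400 genes past the threshold, and for 59.6% of all genes tested, the control and Glis3 shRNA libraries did not overlap for these 8 genes. None of the 8 passed without control library 1. Ifitm3, an interferon-induced membrane protein that blocks viral entry, was among the most abundant genes past the threshold, at 285 and 272 RPKM in the controls, 380.2 and 428 in the Glis3 knockdown and 234 and 311 in the CD133 knockdown.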
